A study of Mus musculus with 12 samples.

Results

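The genes of the MYC network and Myb were followed through ATAC-seq peak lists of mouse myeloid progenitors that were kept immature or released to differentiate. The set held 10 genes: Myc, Mycn, Mycl, Max, Mxd1, Mxd4, Mxi1, Mnt, Mga and Myb. A region was a stretch called as a peak in at least 1 of 6 lists, and it belonged to a gene when it overlapped it or, failing that, when this protein-coding gene had the nearest start or end, within 50 kb. By this rule 15 of 16028 regions belonged to the set, and 9 of the 10 genes had at least 1. Coordinates are those of GRCm38, and 14813 of all regions had a protein-coding gene within 50 kb and serve as the background. The farthest region given to a member lay 25.7 kb from Myb, and the nearest one not given to Myb, 40.7 kb away, was closer to Ahi1.

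ATAC-seq marks DNA that a transposase can reach, and a peak is a stretch where such cuts pile up. The cells were ER-Hoxa9-Lys-GFP cells of strain C57BL/6, in which Hoxa9 is fused to the estrogen receptor, so that estradiol (E2) keeps the factor active, and all groups carried this fusion and grew in medium conditioned with SCF, the ligand of Kit. Continuous E2 and 120 h of withdrawal were the end points. In 4 add-back groups, named below by their hours of withdrawal, E2 was washed out for 24, 40, 56 or 72 h and returned for the remaining 96, 80, 64 or 48 h. A longer withdrawal thus always came with a shorter return. Each group had 2 libraries but only 1 peak list, which gives chromosome, start and end alone. There were therefore no replicate values, no depth and no test between groups, and every difference below is a description of these lists. Nuclei of 1 preparation were split into paired transposition reactions, per the labels, which do not say whether the libraries came from separate cultures. In such bulk samples, fewer cells with an open site and a site less open in each cell cannot be told apart.

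The lists held 13165, 11465, 9940, 8989, 9581 and 7987 peaks in the order continuous E2, 24, 40, 56, 72 and 120 h, and the median peak narrowed from 839 to 581 bases. Each list was thus shorter than the one before it, apart from that of 72 h, and each had a smaller median width, and the part of this in any single call was not tested. Of 7 markers of myeloid progenitors, 6 had a region, and these had 13 lost regions among 17, where 40.2% of all regions with a gene, and 53.8% of those over no promoter window, were lost. Among 5 neutrophil markers, 4 had a region, and these had 4 gained regions among 5, with none called in continuous E2, where 9.04% of all regions with a gene were gained. Of 7 markers of erythroid, B and T cells, only Klf1 and Pax5 had a region, 1 each, and both were called in continuous E2 and not at 120 h.

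MYC proteins bind DNA as pairs with MAX, mostly at the E-box, the letters CACGTG, and raise the output of growth and biosynthesis genes. MXD proteins, MNT and MGA also pair with MAX and act as repressors at the same sites. In blood, MYC and MYB are typical of dividing progenitors, MYB is needed to keep these cells immature, and Mxd1 is known to be turned on as granulocytes mature.

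Promoter stretches are shown for 3 genes whose promoter region was kept and 2 for which it was not. Max, Mxd4 and Mnt had promoter regions called at both end points, and were the 3 members with an E-box in the reference window, which runs from 250 bases before to 50 after a gene start. Mycn and Myb had promoter regions missing at 120 h and no E-box there. Mxd1, not shown, also had a promoter region at both end points, without an E-box. Each stretch is 270 bases, up to 20 bases past the start, 5′ to 3′ on the gene's strand, from RefSeq on GRCm38.p6, with the E-box in capitals.
Max (chr12:76962229-76962498, minus strand): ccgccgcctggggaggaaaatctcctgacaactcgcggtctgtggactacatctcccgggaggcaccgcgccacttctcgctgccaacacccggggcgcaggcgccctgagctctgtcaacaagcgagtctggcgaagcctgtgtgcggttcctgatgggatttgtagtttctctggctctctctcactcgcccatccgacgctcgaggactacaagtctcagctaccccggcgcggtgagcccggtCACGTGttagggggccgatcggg
Mxd4 (chr5:34187691-34187960, minus strand): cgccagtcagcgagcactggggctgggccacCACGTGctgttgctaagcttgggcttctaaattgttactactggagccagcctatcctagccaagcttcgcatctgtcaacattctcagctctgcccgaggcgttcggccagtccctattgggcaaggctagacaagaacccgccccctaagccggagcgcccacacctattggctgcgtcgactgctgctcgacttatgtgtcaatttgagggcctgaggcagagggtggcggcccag
Mnt (chr11:74830674-74830943, plus strand): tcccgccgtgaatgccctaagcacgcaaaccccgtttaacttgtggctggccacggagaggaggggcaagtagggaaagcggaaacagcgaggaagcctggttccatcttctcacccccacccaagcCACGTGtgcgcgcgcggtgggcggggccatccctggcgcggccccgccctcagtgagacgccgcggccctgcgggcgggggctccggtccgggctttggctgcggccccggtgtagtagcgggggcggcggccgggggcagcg
Mycn (chr12:12941817-12942086, minus strand): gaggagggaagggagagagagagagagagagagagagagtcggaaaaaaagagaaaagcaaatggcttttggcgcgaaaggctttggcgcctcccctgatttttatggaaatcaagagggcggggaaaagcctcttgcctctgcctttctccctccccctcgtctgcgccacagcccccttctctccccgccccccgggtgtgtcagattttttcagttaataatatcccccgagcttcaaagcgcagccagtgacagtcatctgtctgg
Myb (chr10:21160965-21161234, minus strand): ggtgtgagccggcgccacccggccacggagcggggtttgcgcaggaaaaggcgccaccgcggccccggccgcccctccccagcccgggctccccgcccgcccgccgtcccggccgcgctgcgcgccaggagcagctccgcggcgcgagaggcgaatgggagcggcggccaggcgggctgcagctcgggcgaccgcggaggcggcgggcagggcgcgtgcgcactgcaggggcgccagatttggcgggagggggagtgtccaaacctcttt

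Positions count from the start on which each promoter window was built, which for Max and Mnt lies inside the annotated gene. In the Max stretch the E-box began at position -3 from that start and ran across it. It began at position -219 in Mxd4 and at -123 in Mnt. The word reads the same on both strands, and 7.84% of 21263 windows of protein-coding genes held it. Among windows inside any region the share was 11.3%. It was 11.5% of windows in regions called at both end points and 10.3% of those in regions missing at 120 h, so over all genes these shares lay close together. The MYB core AACNG, searched on both strands, was in a window of all 9 members that have one, but also in 79.1% of all windows. The C/EBP word TTGCNNAA occurred among the members in Mxd4 alone (10.2% of all windows), and the PU.1 core GAGGAA in Max, Mnt and Mxi1 (27.4%). The MEIS word TGACAG occurred in Max, Mxd1, Mxd4 and Mycn (18.7%). Such letters are a description of the reference and show no binding. No promoter window of Myc was used here.

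The comparison of the end points asked which regions were called in continuous E2 and at 120 h. Of the 15 regions, 7 were called in continuous E2 and not at 120 h, termed lost. They lay at Myc, Mycn, Mga (1 each), Mxi1 and Myb (2 each). Another 5 were called at both end points, termed kept, at Max, Mxd1, Mxd4 and Mnt. A single region, at Mxd1, was called at 120 h and not in continuous E2, termed gained, and 2 regions, at Myc and Mga, were called only after E2 was returned. Over all regions with a gene 40.2% were lost, 9.04% gained, 42.4% kept and 8.40% neither. The members' 46.7% lost and 6.67% gained were near these shares, so the balance over the set was close to that of all genes, and the results lie in which gene had which region.

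Promoter regions stood further from the background. Of the 8 member regions over a promoter window, 4 were lost, at Mycn, Mxi1, Mga and Myb, and 4 kept, at Max, Mxd1, Mxd4 and Mnt. None was gained. Over all 6856 such regions 24.5% were lost, 6.62% gained and 62.7% kept. Of the 7 member regions over no promoter window, 3 were lost, 1 gained and 1 kept, against 53.8%, 11.1% and 24.8% of 7957. The region that holds the Myc start coordinate is among these 3 lost ones, because no promoter window of Myc was used. The loss at the Mxi1 promoter rests on leaving out a row longer than 10 kb at 120 h. With 8 regions and no replicate lists, the difference at promoters carries no test.

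**Figure D1:**
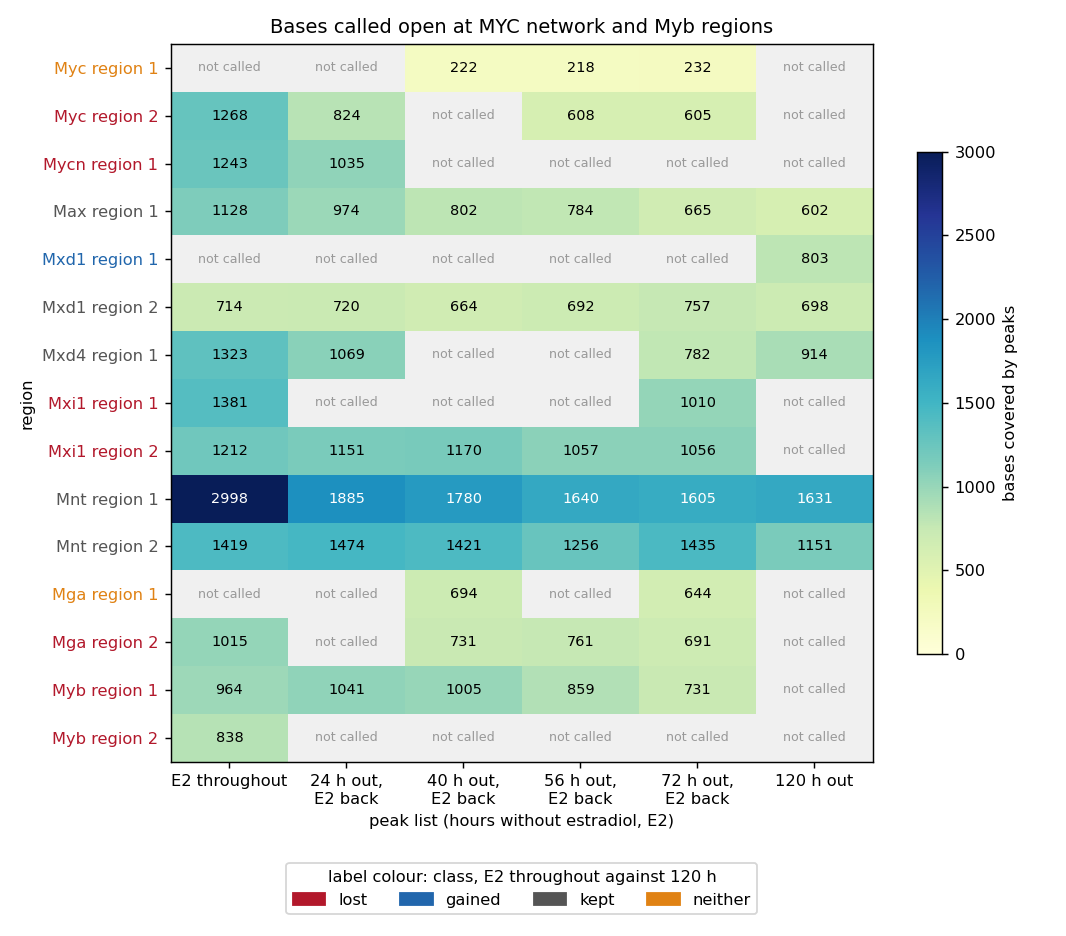
Bases covered by peaks in each of the 15 regions (rows) in each of the 6 lists (columns), as a colour scale with the value printed, and grey where no peak was called. Row labels are coloured by class, and a reader should see that only the regions of Max and Mnt and 1 of Mxd1 are filled in every column, while those of Myc, Mycn, Mxi1, Mga and Myb are empty at 120 h.

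Myc encodes the central member of the network. The region that held the start coordinate of the gene (chr15:61984530-61985797) covered 1268 bases in continuous E2 and 824 after 24 h. No peak was called there after 40 h, peaks of 608 and 605 bases were called after 56 and 72 h, and at 120 h there was again none. The call was therefore present on both sides of the gap at 40 h. Under a rule of 50% reciprocal overlap it was called in continuous E2 and after 24 h alone. Of all regions with a gene, 117 (0.790%) had this order of calls. The peak in continuous E2 was among the wider ones, with 12.2% of that list at least as wide, whereas after 72 h 47.9% of the list was.

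A second, narrow Myc region lay 1714 bases before the start coordinate (chr15:61983396-61983627). It covered 222 bases after 40 h, 218 after 56 h and 232 after 72 h and was called in no other list. These were among the narrowest peaks of their lists, with 97.3% to 99.0% of peaks at least as wide. It left the count in every list when only peaks of at least the median width were used, or when each list was cut to its 7987 widest peaks. Without these cuts, Myc had 1 called region in continuous E2, 24 and 40 h, 2 after 56 and 72 h, and none at 120 h.

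Beyond Myc no region was called for 1.62 Mb. Enhancers that act on Myc in blood cells are known to lie far beyond the gene, and 5 regions with no protein-coding gene within 50 kb formed a group of 94.3 kb between 1.62 and 1.71 Mb from it. They belong to no member by the rule of 50 kb, and whether they act on Myc was not measured. The first (chr15:63611077-63611634) covered 558 bases in continuous E2 and 365 after 24 h and was not called later. The third (chr15:63657625-63658655) covered 1031, 820, 785, 707 and 704 bases from continuous E2 to 72 h, and was not called at 120 h. That is the same order of calls as at the Myb promoter.

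The fourth (chr15:63678709-63679399) was called in continuous E2 alone, with 691 bases. The last (chr15:63704357-63705356) was called in every list and narrowed from 1000 bases in continuous E2 to 800, 755, 621, 569 and 353 bases at 120 h. The second (chr15:63648029-63648609) was called after 40 and 56 h alone, with 581 and 380 bases. In all, 4 of the 5 were called in continuous E2, 3 after 24, 40 and 56 h, 2 after 72 h and 1 at 120 h. Among all 1215 regions without a gene within 50 kb, 58.3% were lost and 18.8% kept, against 3 and 1 of these 5, so this group was near its background.

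**Figure D2:**
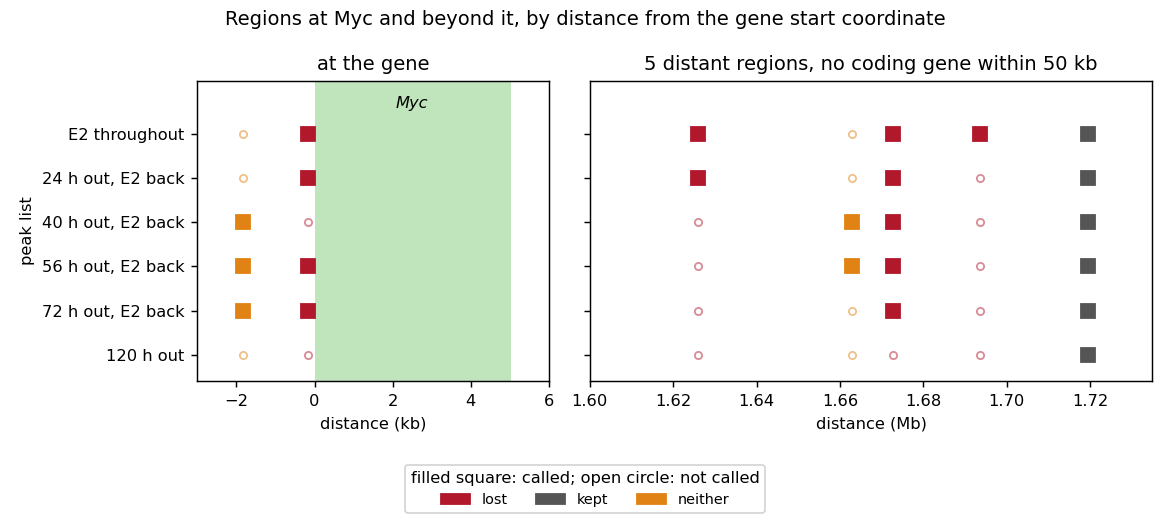
Calls at Myc (left, distance from its start coordinate in kb, gene shaded) and in the group of 5 distant regions (right, distance in Mb) in the 6 lists, with filled squares for called and open circles for not called, coloured by class. A reader should see that at 120 h only the last distant region is called, and that the region at the gene start is missing at 40 h and at 120 h.

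Mycn encodes a MYC protein best known from neural and embryonic tissue that is also found in early blood progenitors. Its only region lay over the promoter (chr12:12941566-12942808) and covered 1243 bases in continuous E2 and 1035 after 24 h. It was not called after 40, 56 or 72 h or at 120 h. A return of E2 for 80 h after 40 h without it was thus not accompanied by a call. This order, called up to 24 h alone, was seen in 1199 regions with a gene (8.09%). The peaks were wide, with 13.6% of the continuous E2 list and 19.8% of the 24 h list at least as wide. No other region lay within 200 kb.

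Mycl, the third MYC gene, had no region of its own. The promoter window on chromosome 4 was covered by no peak of any list. The nearest region, 13.9 kb away and called in every list, overlapped Trit1, and the next, 23.5 kb away and called in continuous E2 alone, also overlapped Trit1.

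Max encodes the shared partner of all these proteins. Its only region (chr12:76961710-76962837), over the promoter, was called in every list and covered 1128 bases in continuous E2 and 974, 802, 784, 665 and 602 bases after 24, 40, 56, 72 and 120 h. The width thus became smaller at each step. At 120 h it was 0.534 of that in continuous E2, while over the 5265 regions called in all lists the median ratio was 0.670, with the middle 50% of regions at 0.568 to 0.782. Of these regions, 18.4% had a ratio as low as that of Max or lower.

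Among the MXD repressors, Mxd1 had a gained region and Mxi1 had lost ones. That of Mxd1 was the only gained region of the set (chr6:86638849-86639651), called at 120 h alone with 803 bases, and 7393 bases past the end of the gene, which lies on the minus strand. In that list 16.5% of peaks were at least as wide, so by width the call was not near the lower end. Calls at 120 h alone made up 2.68% of regions with a gene. The Mxd1 promoter region (chr6:86668924-86669702) was called in every list and covered 714, 720, 664, 692, 757 and 698 bases from continuous E2 to 120 h.

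The Mxd1 promoter kept its width while most regions narrowed. Its ratio of 120 h to continuous E2 was 0.978, and 95.9% of regions called in all lists had a ratio as low or lower. Among peaks of each list it therefore moved from below to above the median width, with 65.0% of peaks at least as wide in continuous E2 and 29.3% at 120 h. Under cuts on width this kept region turned into a gained one: with lists shortened to equal length it was missing in continuous E2 alone, and with peaks of at least the median width it was called after 56, 72 and 120 h alone.

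Mxi1 encodes a further MXD repressor and lies on the plus strand of chromosome 19. Its first region (chr19:53313068-53314486), inside the gene 2940 bases from its start, was called in continuous E2 with 1381 bases and after 72 h with 1010 bases, and in no other list. Its second region (chr19:53329073-53330284) lay over 2 of the 3 promoter windows of the gene, 18945 bases inside it. It covered 1212, 1151, 1170, 1057 and 1056 bases from continuous E2 to 72 h and was not called at 120 h. The width had shrunk little before the call ended, and at 72 h only 4.13% of the list was as wide. The outermost promoter window of Mxi1 was in no region, with rows longer than 10 kb left out.

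Chromosome 19 is 1 of the 2 on which the deposited lists repeat rows. At the second Mxi1 region, the 8 rows of up to 10 kb in continuous E2 merged into 1 peak, as did the 8 rows after 24 h and the 3 or 4 in each later add-back list. In every list, 1 to 12 rows longer than 10 kb also overlapped each Mxi1 region and were left out, and at 120 h there was 1 such row and no shorter one. The absence of Mxi1 calls at 120 h thus rests on leaving out that row. The same holds for the first region after 24, 40 and 56 h, where 12, 2 and 1 such rows and no shorter one lay, so its order of calls rests on leaving them out.

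Mxd4 encodes a MXD protein found in many mature tissues. Its promoter region (chr5:34187155-34188477) covered 1323 bases in continuous E2, 1069 after 24 h, 782 after 72 h and 914 at 120 h. After 40 and 56 h it was not called, so the gap lay in the middle of the order, and 53 regions with a gene (0.358%) shared this order. At 120 h the peak was among the widest of its list, with 8.88% at least as wide.

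Mnt encodes a broadly expressed repressor that competes with MYC for MAX. It had 2 regions, both called in every list. That at the promoter (chr11:74829942-74832939) covered 2998 bases as 1 peak in continuous E2, and 1885, 1780, 1640, 1605 and 1631 bases as 2 peaks in each later list. It was the third widest of the 5265 regions called in all lists. The other (chr11:74837578-74839103), inside the gene 6622 bases from its start, covered 1419, 1474, 1421, 1256, 1435 and 1151 bases from continuous E2 to 120 h, and after 72 h just 0.543% of peaks were as wide.

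The Mnt regions differed in how their width changed. At 120 h the promoter region was at 0.544 of its width in continuous E2, with 20.4% of regions called in all lists at or below that ratio. The inner region was at 0.811, with 80.3% at or below it. Most of the change at the promoter lay between continuous E2 and 24 h, where the ratio was already 0.629 and only 2.74% of regions were as low. Because that peak was split in all later lists, a rule of 50% reciprocal overlap called this region in continuous E2 alone.

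**Figure D3:**
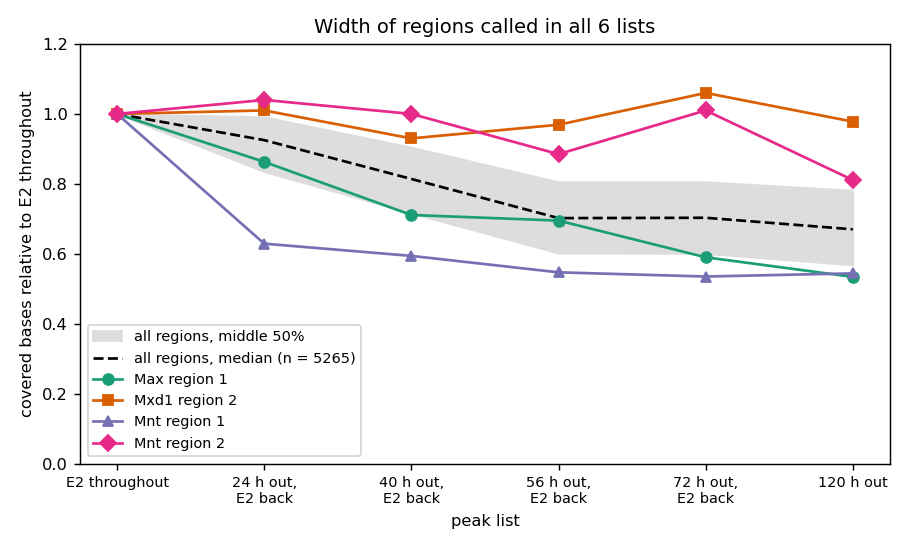
Bases covered in each list relative to continuous E2 for the 4 member regions called in all 6 lists, with the median (dashed) and the middle 50% (grey) of all 5265 such regions. A reader should see that the Mxd1 promoter and the inner Mnt region lie above the grey band at 120 h (0.978 and 0.811) and that the promoters of Max and Mnt lie below it (0.534 and 0.544).

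Mga encodes a MAX partner that also carries a T-box and serves in a repressive Polycomb complex. Its promoter region (chr2:119896855-119897905), 24352 bases inside the annotated gene, covered 1015 bases in continuous E2, 731 after 40 h, 761 after 56 h and 691 after 72 h. It was not called after 24 h or at 120 h. A second region 206 bases inside the first coordinate of the gene (chr2:119872709-119873402) was called after 40 h with 694 bases and after 72 h with 644 bases alone. These orders were shared by 87 and 46 regions with a gene (0.587% and 0.311%).

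Myb encodes a factor that keeps blood progenitors immature and dividing. Its promoter region (chr10:21160648-21161726) covered 964, 1041, 1005, 859 and 731 bases from continuous E2 to 72 h, and was not called at 120 h. The calls thus lasted through every add-back list, and the width was larger after 24 and 40 h than in continuous E2. This order, missing at 120 h alone, was seen in 1004 regions with a gene (6.78%), among them the second Mxi1 region. The other Myb region (chr10:21186698-21187535), 25.7 kb before the gene start, was called in continuous E2 alone with 838 bases, as were 11.6% of regions with a gene.

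Enhancers between Myb and the neighbouring gene Hbs1l are known to act on Myb in blood cells. In that stretch, a region 67.6 kb before Myb (chr10:21228557-21228915) covered 359, 320, 250 and 176 bases from continuous E2 to 56 h and was not called after 72 h or at 120 h. A region 91.0 kb before Myb (chr10:21251949-21252452) covered 488 bases in continuous E2 and 495 after 24 h, and was not called later. With the region at 25.7 kb, these calls ended at different steps. Regions at 120 kb and 135 kb, the last of them overlapping Hbs1l, were called in every list, with 686 and 696 bases in continuous E2 and 521 and 492 at 120 h. On the other side, a region 40.7 kb past the end of Myb and nearest to Ahi1 was called in every list but that of 120 h. Over the 7 regions within 200 kb that belong to another gene or none, 3 were lost, 3 kept and 1 was called after 72 h alone. Of all regions with a gene 40.2% were lost and 42.4% kept.

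**Figure D4:**
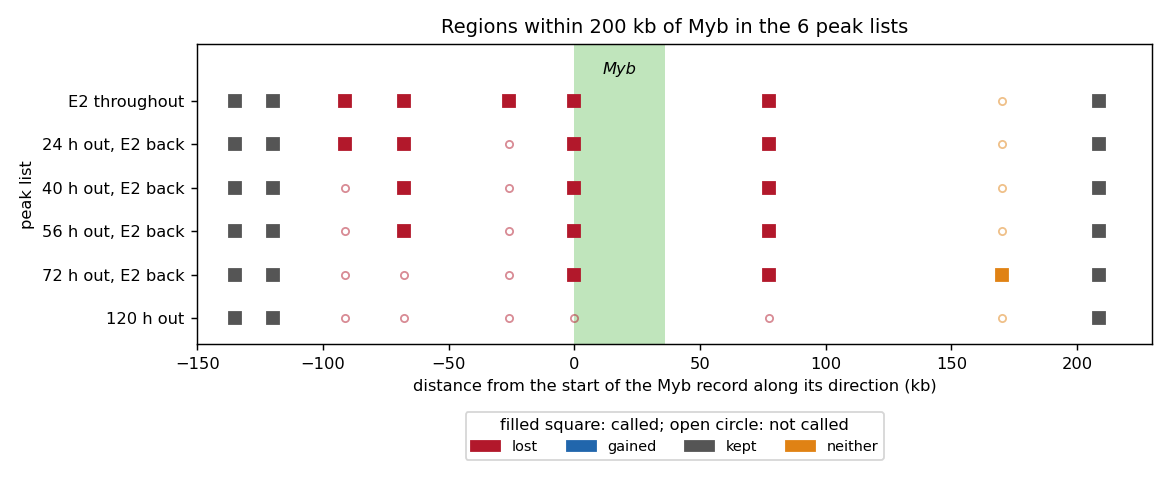
Calls within 200 kb of Myb in the 6 lists by distance from the gene start in kb (negative values lie before the start, gene shaded), with filled squares for called and open circles for not called, coloured by class. A reader should see that between the gene and 100 kb before it the calls end at different steps, and that at 120 h neither the promoter nor any region within 100 kb before it is called.

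Seen by list, the 15 regions were called 12, 9, 9, 9, 12 and 6 times in continuous E2, 24, 40, 56, 72 and 120 h. In percent, 80.0% were called in continuous E2 against 82.6% of all regions with a gene, and 40.0% at 120 h against 51.4%. After 72 h the 80.0% lay above the 61.6% of all regions, and after 24 h the 60.0% lay below the 72.5%. By the main rule the list of 72 h held as many member regions as that of continuous E2, namely those of continuous E2 without Mycn and the distant Myb region and with the second ones of Myc and Mga. It held fewer, 18 against 23, when any region within 50 kb of a member was counted, and 10 against 12 under 50% reciprocal overlap. Covered bases were 15503 in continuous E2, 10173, 8489, 7875 and 10213 in the add-back lists and 5799 at 120 h. Of the regions called in both lists, all but the Mxd1 promoter and the inner Mnt region were narrower after 72 h.

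**Figure D5:**
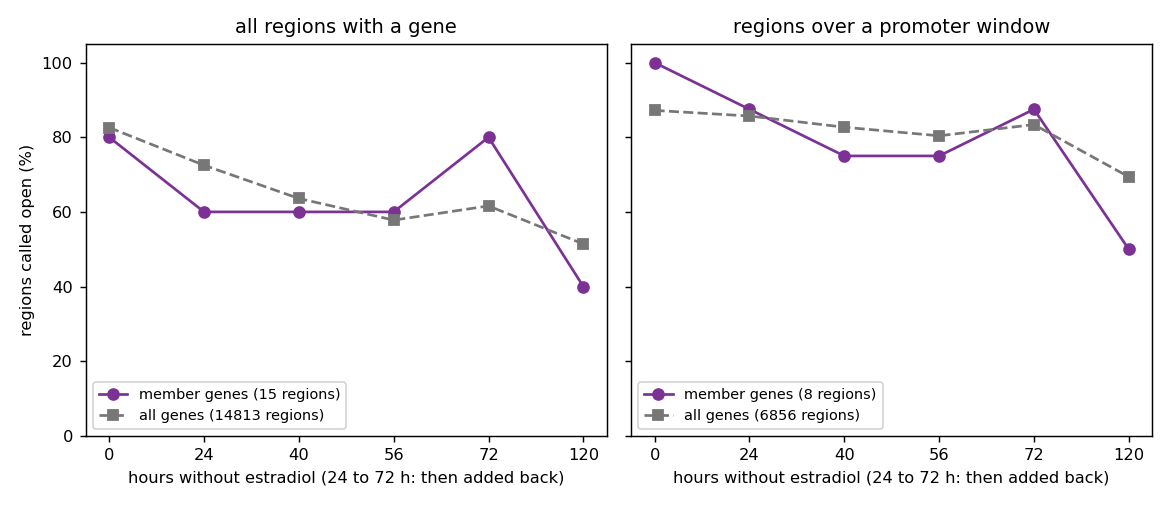
Percent of regions called in each list for the member genes (purple circles) and for all genes (grey squares), for all regions with a gene (left, 15 and 14813 regions) and for those over a promoter window (right, 8 and 6856). The region at the Myc start is not in the right panel, as no promoter window of Myc was used. A reader should see that on the left members lie at 80.0% after 72 h and 40.0% at 120 h, against 61.6% and 51.4% of all regions.

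Along the order of withdrawal, 6 of the 15 regions (40.0%) changed more than once between called and not called, against 24.2% of all regions with a gene. They were both regions of Myc, both of Mga, that of Mxd4 and the first of Mxi1, whose order rests on the long rows left out. Of the 7 lost regions 4 went missing at 1 step and stayed missing, at Mycn, Mxi1 and Myb, which is 57.1% against 83.5% of all 5955 lost regions with a gene. At Mxi1 this too rests on the long row left out at 120 h. The other lost regions returned at least once, so the step at which a call ended is not defined for Myc, Mga and the first Mxi1 region. All 6 lists called 4 member regions, at Max, Mxd1 and Mnt, or 26.7% against 34.5% of all regions.

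Genes with the most similar counts of called regions over the 6 lists were sought for each member with at least 2 regions. For Myc, 5 of 11514 genes with a region had the same 6 counts, and Maff, Fcho1 and Tufm were closest in covered bases. For Mxi1, whose counts rest on the long rows left out, Atxn1l and Gm52030 had the same counts, and Zfp800 differed by 1. For Mga no gene had the same counts, and Klf7 and Rasgrp2 differed by 1 and Rap2c by 2. For Myb, 46 genes did, and Pde7a, Aldh9a1 and Map3k4 were closest. For Mxd1, 56 genes did, with Heatr5a, Gm46294 and Rlf the closest, and for Mnt 134, with Pcgf5, Zfp958 and Arhgap5.

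Further genes of the pathway were taken from 8 lists. Of these 58 genes, 57 had a region, and their 85 regions were 33 lost, 5 gained, 38 kept and 9 neither. The lost share of 38.8% was close to the 40.2% of all regions. The remaining members of the network, Mxd3 and the MLX arm, in which MLX takes the place of MAX, had 4 regions and none was lost. The Mlx promoter region was called after 72 h with 348 bases and at 120 h with 313 bases alone, that of Mlxip in every list, and that of Mxd3 in every list but that of 40 h.

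MYC cofactors had 9 kept and 4 lost among 13 regions (30.8% lost, against 40.2% of all regions). Trrap, Kat5, Ep400, Ruvbl1 and Ruvbl2, parts of acetyltransferase and remodelling complexes that MYC recruits, had promoter regions in every list, as did 53.3% of all regions over a promoter window. The lost ones lay at Zbtb17, which encodes the MYC partner MIZ1, with 2, one over its promoter and called in every list but 120 h, and at Mycbp2 with 2. Genes of MYC turnover had 7 kept and 3 lost among 10 regions (30.0% lost), the lost ones at Fbxw7 (2), which encodes the part of a ubiquitin ligase that marks MYC for decay, and Gsk3b (1), a kinase that prepares MYC for it. The promoter regions of Fbxw7 and Gsk3b were called in every list, and the lost regions lay away from the promoter windows of these genes.

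Genes known as MYC targets had 7 kept, 4 lost and 5 neither among 16 regions. Over all regions with a gene, 42.4% were kept, 40.2% lost and 8.40% neither. Promoters of the nucleolar genes Ncl and Nop56, of Cdk4, Nme1, Eif4e and Odc1 were called in every list, as were 53.3% of all regions over a promoter window. Others were not: the promoter region of Ldha was called in the add-back lists alone. That of Shmt2 and the Ccnd2 regions were called after 56 and 72 h alone. Of further nucleolar genes, Npm1 had a region called after 24 and 72 h alone. That of Fbl was called in continuous E2, after 40 h and at 120 h alone. The lost regions lay at Odc1, Ldha, Cad and Tert, 1 each. That of Tert, the catalytic part of telomerase, lay over the promoter and was called in continuous E2 alone, with 563 bases. That of Cad, which starts pyrimidine synthesis, covered 1128 bases in continuous E2 and was missing after 56 h and at 120 h.

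Sin3a encodes a scaffold of the corepressor complexes that MXD and MNT proteins recruit, and had 1 lost and 1 gained region. The gained region lay over the promoter and was called from 40 h on, with 1255 bases after 40 h and 1262 at 120 h. The lost one covered 839 bases in continuous E2 and was called up to 56 h. Genes of the MGA complex had 3 lost, 1 gained and 3 kept among 7 regions, and their 42.9% lost was near the 40.2% of all regions. The promoter regions of L3mbtl2, Rnf2 and Cbx3 were kept. The promoter regions of Pcgf6 and E2f6 were lost, as was a further one at Tfdp1, whose promoter region was gained and called from 40 h on.

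On the side of MYB, its relatives Mybl1 and Mybl2 had a region called in every list. Of its coactivators, Ep300 had a promoter region with the same order of calls as that at the start of Myc, missing at 40 h and 120 h, with 1274 bases in continuous E2 and 1303 after 72 h. Crebbp had a promoter region missing in continuous E2 alone. Genes known as MYB targets had 11 lost, 1 gained, 3 kept and 1 neither among 16 regions (68.8% lost). Over all regions 40.2% were lost, and over those in no promoter window, where most regions of Cd34, Bcl2 and Lmo2 lay, 53.8%. Here Cd34 had 4 lost regions, Bcl2 3 and 1 gained, Lmo2 2, and Kit and Mpo 1 each, and no region lay at Elane. This list overlaps the progenitor markers above and was chosen with earlier results of these data known, so its share is no independent evidence. The Kit promoter region, for the SCF receptor, covered 1632 bases in continuous E2 and 1010 after 72 h and was missing at 120 h alone, like the Myb promoter.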

How the data were processed

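The 12 ATAC-seq libraries form 6 groups, and the labels of both libraries of a group point to the same peak list. The deposited files hold, per peak, only chromosome, start and end, another kind of value than a score, count or p-value, and nothing in the labels says how the authors combined the libraries. The submitters' processing notes name BWA, MACS2 2.0 and STAR 2.5 and list the build mm9, with no role for each. The coordinates were checked against GRCm38.p6 genes: a gene start or end lay no more than 1000 bases away for 52.4% to 69.6% of peaks, and for 8.98% to 9.17% once these were shifted by 100000 bases, so GRCm38 was used.

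Exact duplicate rows (115 to 2530 per list) and intervals over 10000 bases (1 to 16) were left out and overlapping rows merged. A region was called in a list when they shared 1 base or more. A region overlapping several genes counted for each. Promoter windows and strands came from RefSeq tables on GRCm38.p6. Flanks of 200 kb (2 Mb for Myc) and the most similar genes, at most 3 for each member with 2 or more regions, were listed. Of the further pathway lists, up to 4 genes with lost or gained regions were named. Mpo and the kept, neither and marker genes were named as examples after their values were seen. Results of the corepressor list are given for Sin3a, and an item of it is not reported here. The members and lists were chosen with earlier results of these data known. No test was made, as each group had 1 list and depth was unknown. Overlap, merging, classes and gene assignment were tested on simulated data. Python 3.11.15, numpy 2.4.6 and matplotlib 3.10.9 were used.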

Additional observations from a re-analysis of the deposited data

How the results depend on the processing

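No paired analysis was possible because the libraries numbered 1 and 2 share a list, so neither could be left out in turn. Of 12 alternative settings, 11 were planned, and the one of promoter windows alone was added after seeing the data. The 20 counts and covered lengths were recomputed, and 176 of 202 values stayed within 1.5 times the main value. None moved further with 50% reciprocal overlap, assignment within 20 or 100 kb, merging of peaks within 200 bases, an interval limit of 5 kb, gene boundaries of 500 or 2500 bases, or without chromosomes 18 and 19. The limit of 5 kb also leaves out the rows longer than 10 kb at Mxi1, so it could not change the calls that rest on them. A higher limit was not among the settings. With peaks of at least the median width, and with lists of equal length, gained regions numbered 2 and those called at neither end point 1; the shorter lists remove narrow peaks by construction. Counting any region within 50 kb of a member, whichever gene is nearest, gave 28 regions, of which 14 were lost, 2 gained and 9 kept, 7 in all lists and 14 at a gene boundary. The lists of 0, 24, 40, 56, 72 and 120 h then called 23, 18, 17, 15, 18 and 11, and those of 0, 24 and 40 h covered 24275, 17184 and 14242 bases. With promoter windows alone 8 regions were left, 4 lost, 0 gained, 0 at neither end point and 2 that changed more than once, 7 were called after 72 h, and 6287 bases after 72 h and 3845 at 120 h were covered.

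By region, 50% reciprocal overlap altered the calls of 2 of 15 and the class of 1 (the Mnt promoter, kept to lost). The median width altered 4 and the class of 2 (the Mxd1 promoter, kept to gained, and the distant Myb region, lost to neither). Equal length altered 2 and the class of 1 (the Mxd1 promoter). Width is the only measure of a peak in these files, and a region near the threshold of a list cannot be told from one that is closed.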

Other observations

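Neighbours of the members had regions of their own. Within 200 kb of Mxd1, 13 regions belonged to other genes, of which 8 were lost, 1 gained and 4 kept. Over all regions with a gene 40.2% were lost, and over those in no promoter window 53.8%. Called in continuous E2 alone were 4 of the 13, against 11.6% of all regions with a gene. The region in Gm46963, 37.4 kb past the end of Mxd1, was called at 120 h alone, like the gained Mxd1 region, with 519 bases. A region of 1763 bases over Pcbp1 was called up to 56 h and missing after 72 and 120 h. Next to Mnt, a region 2201 bases past the gene, nearest to Sgsm2, was called up to 40 h alone, with 866 bases in continuous E2, 625 after 24 h and 569 after 40 h, although both Mnt regions were called in every list. Next to Mxi1, 16.6 kb past its end, a region of 1379 bases at Smndc1 was called up to 56 h alone.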
